A study of Drosophila melanogaster with 16 samples.

Results

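The 6 genes described here are the Argonautes AGO1 and AGO2, the Dicers Dcr-1 and Dcr-2, and the double-stranded RNA binding proteins r2d2 and loqs of Drosophila melanogaster. They were taken by gene name as the core of the siRNA and miRNA pathways and are 6 of 13892 genes with a coding sequence (CDS) in the files. RNA came from OSS cells, an ovarian follicle cell line, which were electroporated with siRNAs against GFP (siGFP, the control), piwi (siPIWI), the fly Paf1 gene atms (siPAF1), or both piwi and atms (the double knockdown). Every group, the control included, therefore received siRNAs (500 pmol per 10 cm plate, followed by 6 days of culture), and no group without siRNA was analysed here. RNA was taken from a pellet that the labels call NUN, without spelling the letters out, and from the lysate of the cytoplasm, here called cyto. With 4 siRNA treatments and both fractions there were 8 groups of 2 libraries, numbered OSS_146 and OSS_147. The labels do not say whether these came from separate cultures, so the p-values measure only the spread between libraries, which may be technical.

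In flies, miRNAs are cut from hairpin precursors by Dcr-1 with the help of loqs and are loaded mainly into AGO1, which represses translation and recruits deadenylases. Long double-stranded RNA is cut by Dcr-2, and r2d2 together with Dcr-2 hands the resulting siRNA to AGO2, a slicing enzyme that also executes silencing by transfected siRNAs. Ovarian somatic cells silence transposons through piRNAs bound to Piwi, a class that is made without Dicer.

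The NUN libraries held 2080794 to 4623806 unique CDS counts on the genes' own strand, and the cyto libraries were shallower, with 663876 to 1759084. The 6 genes together took 4753 to 13481 of these counts in NUN, but only 204 to 1382 in cyto. Counts outside annotated exons made up 22.5% to 32.0% of locus counts in NUN and 1.13% to 1.71% in cyto. The 3' windows took 8.67% to 14.5% of exon counts in NUN and 30.2% to 36.8% in cyto. The follicle cell marker tj was abundant (6085 to 10609 raw CDS counts per NUN library), and the follicle markers fs(1)Yb and piwi had 298 to 708 and 1199 to 4666. The germline markers vas, nos, osk and bam reached at most 9 counts in any library and aub at most 35. Of other cell types, the haemocyte gene srp (268 to 1149) and the muscle gene sls (7753 to 15430) also had counts in NUN. So did Hml (36 to 100), Pxn (161 to 359) and Mhc (15 to 37), whereas NimC1 and up reached at most 2 and 1. These counts are not scaled to length, and the CDS of sls has 55467 bases against 1536 for tj. The neuronal gene elav had 13 to 23 counts per NUN library, and nSyb and Syt1 at most 6 and 4. The targets of the siRNAs were checked in the same counts. Of the targeted genes, atms in cyto stood at 167 and 172 CPM (counts scaled to the size of the library) with siGFP and at 10.7 and 5.96 with siPAF1 (log2 change -4.28 ± 0.48 SE, edgeR adjusted p = 5.87e-05). Levels of piwi in cyto were 288 and 308 CPM with siGFP and 86.4 and 42.6 with siPIWI (-2.18 ± 0.50, adjusted p = 0.303). In NUN, piwi was at 876 and 592 CPM with siPIWI against 1060 and 1008 with siGFP (-0.49 ± 0.25, adjusted p = 0.9997), and the 2 siPAF1 libraries had 26.3 and 18.3 CPM of atms against 82.7 and 58.4 (-1.67 ± 0.33, adjusted p = 0.237). In the double knockdown piwi was at 1073 and 749 CPM in NUN, of which 1 library lay above both controls (-0.18 ± 0.24, adjusted p = 0.992), and at 101.5 and 36.2 in cyto (-2.08 ± 0.49, adjusted p = 0.139). Its atms levels were 34.1 and 19.0 CPM in NUN (-1.41 ± 0.33, adjusted p = 0.397) and 11.7 and 9.64 in cyto (-3.94 ± 0.47, adjusted p = 1.46e-04).

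The genes differ widely in length, which bears on every comparison of fractions. The sources used here name no genome build, so positions are as deposited. Dcr-1 lies on chromosome 3R from 18559726 to 18566752 on the minus strand and has the longest CDS, 6750 bases. Dcr-2 is on 2R from 13462483 to 13469011, minus strand, with a CDS of 5169 bases. AGO2 is on 3L from 15547206 to 15554142, plus strand, with 3654 bases in its longest of 3 models, and AGO1 on 2R from 9830891 to 9845594, minus strand, with 2955 bases in its longest of 4. The partners are shorter, with 1398 bases for the longest of 4 loqs models (2L, 13382647 to 13385671, plus strand) and 936 for r2d2 (2L, 7800166 to 7802008, plus strand). All 6 genes passed the count filter in every fit. Genes on the opposite strand overlap AGO1 (CG33155 and mRpL53, 1472 bases), AGO2 (CG7739, 318 bases at its 3' end) and Dcr-2 (Rab4, 2 bases). Opposite-strand CDS counts were at most 37 for any of the 6 genes in any library. For AGO2 in cyto, with few CDS counts of its own, these were 35.1% and 28.5% of the counts on both strands in the siGFP libraries and 2.97% to 19.9% in the other 6.

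Per kilobase of CDS, the Argonautes and Dcr-2 were the most abundant of the 6 in NUN, and r2d2 and AGO2 were in cyto. In NUN the level ranged, over 8 libraries, from 131 to 214 CPM per kilobase for AGO2 (median 203), from 156 to 245 for Dcr-2 (median 192) and from 145 to 175 for AGO1 (median 159.5). These 3 changed places between libraries, and their ranges overlap. Dcr-1 (63.9 to 72.2, median 67.1) and r2d2 (57.3 to 76.2, median 65.1) followed at similar levels, with the ratio of r2d2 to Dcr-1 on both sides of 1. Loqs was the lowest of the 6 in 8 of 8 NUN libraries, at 9.74 to 35.1 CPM per kilobase (median 15.97). In cyto r2d2 (43.0 to 62.7, median 52.4) and AGO2 (22.8 to 78.5, median 48.4) led. Dcr-2 (17.3 to 37.7, median 22.7) and loqs (11.4 to 21.5, median 14.0) came next. Dcr-1 (1.96 to 9.33, median 2.92) and AGO1 (1.49 to 13.0, median 3.13) were last in 8 of 8. This order is one of unique CDS counts. These leave out reads with several alignments, which were 2.1% to 44.9% of AGO2 CDS alignments in NUN and 2.11% to 25.6% in cyto. For the other genes this share was 0%, so the place of AGO2 may be too low. On its 3' window AGO1 had 68.7 to 120.4 raw counts per kilobase in cyto and loqs 16.1 to 61.4, and AGO1 lay above loqs in all 8 libraries. Within each fraction the library sizes were scaled separately, so these levels compare genes within a fraction and not a gene between fractions.

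**Figure D1:**
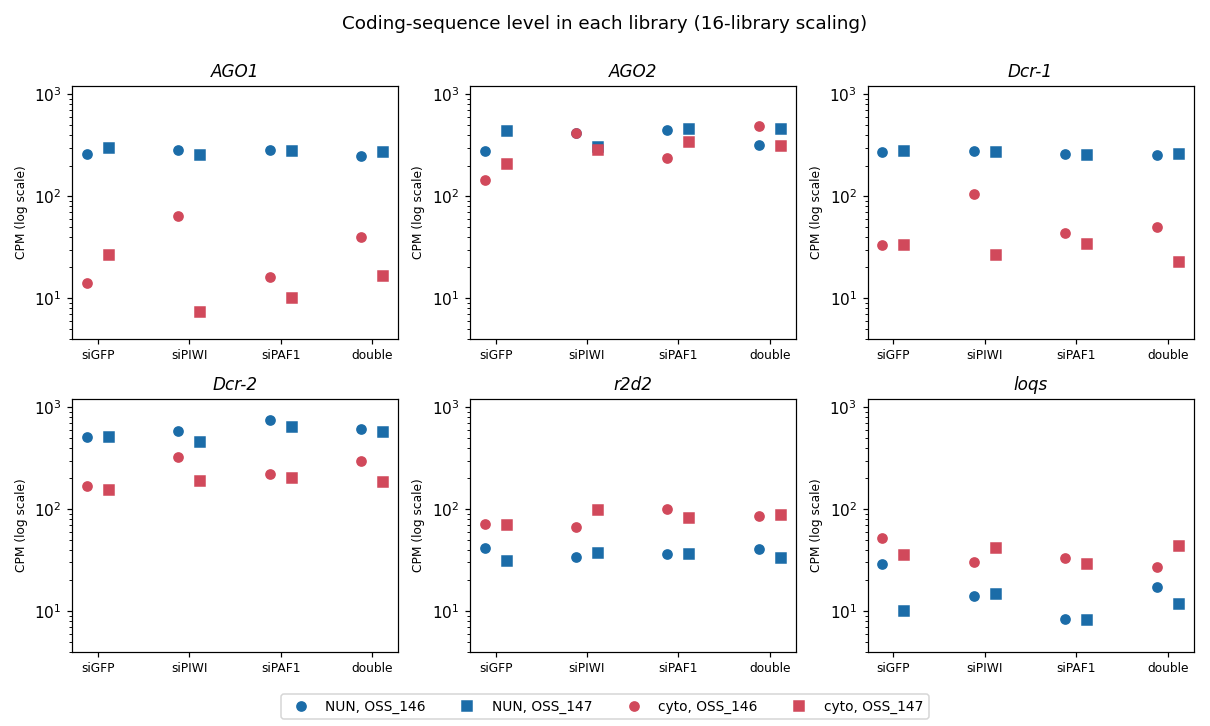
CDS level of each gene in CPM, on a log axis, in all 16 libraries scaled together. Circles are OSS_146, squares OSS_147, blue NUN and red cyto. AGO1, Dcr-1 and Dcr-2 lie higher in NUN in every siRNA group, r2d2 and loqs lie higher in cyto, and AGO2 points of both fractions mix in the siPIWI and double groups.

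The comparison of NUN with cyto asks how the RNA of these genes was split between the pellet and the lysate. On CDS counts AGO1, Dcr-1 and Dcr-2 were higher in NUN and r2d2 and loqs lower, in all 4 siRNA groups, and on library sizes alone the sign turned for r2d2 in all 4 groups and for loqs in all but siPAF1. Of the 6 genes, 4 were called higher and 2 lower with siGFP (edgeR quasi-likelihood test, Benjamini-Hochberg adjusted p under 0.05), against 36.6% and 30.3% of the 7982 genes tested. With siPIWI, siPAF1 and the double knockdown 3 were higher and 2 lower, against 31.5% and 30.1%, 36.8% and 32.6%, and 34.6% and 31% of genes. In total 66.9%, 61.6%, 69.4% and 65.6% of genes were called in these 4 comparisons, so a call alone sets none of the 6 apart. The libraries of the fractions did not overlap for 4 of the 6 genes upward and 2 downward with siGFP (49.3% and 35.4% of all genes), 3 and 2 with siPIWI (45% and 36.5%), 4 and 2 with siPAF1 (48.4% and 39.9%), and 3 and 2 with the double knockdown (46.3% and 37.6%). The median gene stood 0.55, 0.26, 0.32 and 0.27 log2 units higher in NUN with siGFP, siPIWI, siPAF1 and the double knockdown, and the median of the 6 genes was 1.35, 0.52, 1.19 and 0.61.

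AGO1, the miRNA Argonaute, had the widest gap. With siGFP its CDS level was 259.7 and 299 CPM in the NUN libraries and 14.2 and 26.8 in the cyto libraries, on the scale of all 16 libraries, giving 279 ± 27.5 against 20.5 ± 8.89 (mean ± SD, n = 2). No cyto library reached any NUN library. The log2 difference was 3.76 ± 0.59 (SE, adjusted p = 5.87e-06) with siGFP, 2.76 ± 0.52 with siPIWI, 4.39 ± 0.59 with siPAF1 and 3.09 ± 0.53 with the double knockdown, and 85.6% to 91.1% of tested genes had a smaller value. The siPIWI value rests on few counts and 1 library. AGO1 had 59 and 56 raw CDS counts in the siPIWI and double knockdown libraries OSS_146 of cyto and 3 to 14 in the other 6. Without cyto siPIWI OSS_146 the siPIWI difference was 5.21 and stayed called.

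AGO2, the siRNA Argonaute, differed less between the fractions on CDS counts, and its sign depended on what was counted. Its CDS level with siGFP was 282 and 438 CPM in NUN and 144 and 207 in cyto (log2 difference 1.03 ± 0.42, adjusted p = 0.0321). With siPIWI the NUN libraries had 417 and 302 CPM and the cyto libraries 421 and 284, which overlap (0.02 ± 0.40, adjusted p = 0.964). The double knockdown libraries overlapped as well, with 316 and 457 CPM in NUN against 493 and 309 (-0.06 ± 0.40, adjusted p = 0.901). In the siPAF1 group the NUN libraries (453 and 462) lay above the cyto libraries (236 and 339.9) without passing the threshold (0.67 ± 0.40, adjusted p = 0.142). The call with siGFP was lost without cyto siGFP OSS_146 (0.81, adjusted p = 0.207) or NUN siGFP OSS_147 (0.69, adjusted p = 0.236), and with both strands counted together (0.33, adjusted p = 0.475).

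Both Dicers were higher in NUN. Dcr-1, which makes miRNAs, was at 271 and 279 CPM in NUN and at 33.1 and 33.4 in cyto with siGFP, a log2 difference of 3.05 ± 0.50 (adjusted p = 1.05e-05). The difference was 1.99 ± 0.44 with siPIWI, 2.73 ± 0.47 with siPAF1 and 2.73 ± 0.46 with the double knockdown. As with AGO1, the cyto siPIWI libraries were far apart (105 and 26.7 CPM), and without OSS_146 the siPIWI value was 3.37. Dcr-2, which makes siRNAs, differed less, with 509 and 507 CPM in NUN and 168 and 154 in cyto with siGFP (1.66 ± 0.40, adjusted p = 8.32e-04). Its other differences were 1.01 ± 0.39 with siPIWI, 1.70 ± 0.39 with siPAF1 and 1.28 ± 0.39 with the double knockdown. The Dcr-2 call was lost with siPIWI without NUN OSS_146 (0.83, adjusted p = 0.14) or cyto OSS_147 (0.69, adjusted p = 0.176), and with the double knockdown without cyto OSS_147 (0.99, adjusted p = 0.0767).

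The Dicer partners went the other way on the same scale. r2d2, the Dcr-2 partner that senses the stable end of an siRNA duplex, was at 41.9 and 31.0 CPM in NUN and 70.9 and 69.1 in cyto with siGFP (-0.95 ± 0.34, adjusted p = 0.0175). The differences were -1.18 ± 0.33 with siPIWI, -1.34 ± 0.32 with siPAF1 and -1.22 ± 0.32 with the double knockdown, and no NUN library reached any cyto library of its group. Loqs, whose isoforms serve Dcr-1 or Dcr-2, was at 28.8 and 9.93 CPM in NUN and 52.0 and 35.7 in cyto with siGFP (-1.19 ± 0.45, adjusted p = 0.024). The other loqs differences were -1.27 ± 0.45, -1.92 ± 0.46 and -1.21 ± 0.44 with siPIWI, siPAF1 and the double knockdown. With siGFP both calls were lost without cyto OSS_146 (-0.91, adjusted p = 0.0737 for r2d2, and -0.88, 0.231 for loqs) or NUN OSS_147 (-0.73, 0.136, and -0.59, 0.253), and that of r2d2 without cyto OSS_147 (-0.94, 0.0645). Both were lost too with only the siGFP groups in the fit (-0.80, 0.0631 for r2d2, and -1.04, 0.0557 for loqs), that of r2d2 with no count filter (-0.87, 0.0711) and that of loqs with DESeq2 (-1.07, 0.0554). The loqs value was -2.13 without NUN siGFP OSS_146, and the loqs call with siPIWI was lost without NUN OSS_146 (-1.24, 0.0726) or cyto OSS_147 (-1.07, 0.0975). For the double knockdown it was lost without NUN OSS_147 (-0.95, 0.12) or cyto OSS_147 (-0.91, 0.135).

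Over all genes these differences rose with coding length. With siGFP the median log2 difference was -1.56 over 2527 genes with a CDS under 1000 bases, 0.34 over 2875 genes of 1000 to 2000 bases, 1.92 over 1856 genes of 2000 to 4000 bases and 3.16 over 724 longer genes. Of the 6, r2d2 (-0.95) lay above the median of its class and loqs (-1.19) below that of its own. AGO1 (3.76) lay above the upper quartile of its class, 3.32, and AGO2 (1.03) between the lower quartile, 0.54, and the median. Dcr-1 (3.05) was close to the median of the longest class and Dcr-2 (1.66) below its lower quartile, 2.06. Whether transcript length, RNA fragmentation or the fraction itself sets these values was not tested.

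Scaling sets where 0 lies in this comparison. TMM factors ranged from 0.37 to 1.83 over the 16 libraries and were below 1 in all cyto libraries and above 1 in all NUN libraries. Without them, on library sizes alone, the median gene stood 1.53 to 2.48 log2 units higher in NUN, and r2d2 became 1.004, 0.14, 0.19 and 0.21 higher with siGFP, siPIWI, siPAF1 and the double knockdown. On that scale loqs was at 0.79, 0.03, -0.38 and 0.23 and AGO2 at 2.93, 1.30, 2.17 and 1.29. Relative to the median gene the values barely moved, from -1.66 to -1.43 on TMM factors and from -1.65 to -1.39 on library sizes for r2d2, and from 2.51 to 4.08 and 2.48 to 4.11 for AGO1. A scaling factor shifts all genes of a library alike. Distances from the median gene could therefore hardly change, and they are no check of the scaling. The sign of r2d2 depended on it in all 4 groups, that of loqs in all but siPAF1 and that of AGO2 in the double knockdown.

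**Figure D2:**
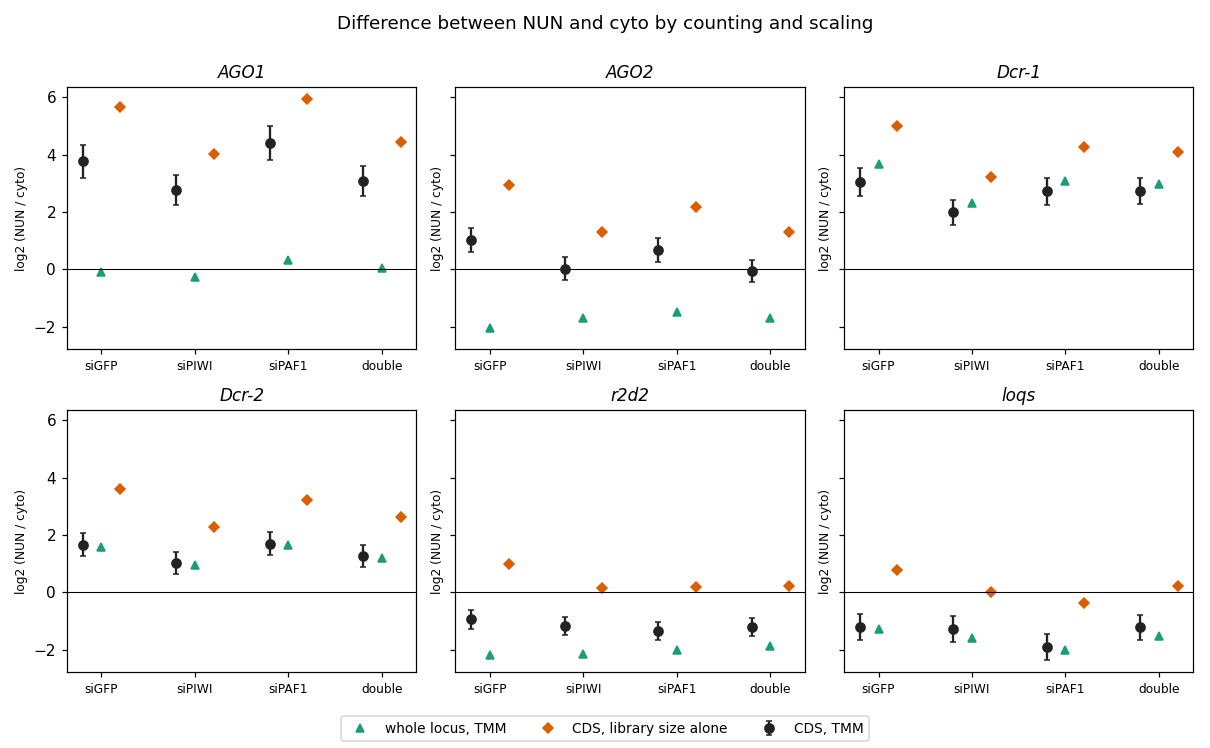
Log2 difference between NUN and cyto for each gene in the 4 siRNA groups. Black points with standard errors are CDS counts with TMM factors, green triangles whole-locus counts with TMM factors, and orange diamonds CDS counts on library sizes alone. AGO1 falls from 2.76 or more to between -0.26 and 0.32, and AGO2 to between -2.03 and -1.47, once the whole locus is counted.

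The part of the transcript that was counted mattered as much for the Argonautes. In cyto nearly all AGO1 counts lay 3' of the CDS. Its 3' window held 89.6% to 99.1% of CDS plus 3' window counts in the 8 cyto libraries and 14.5% to 41.8% in the 8 NUN libraries. The cyto counts of the AGO1 window were 321 to 563, beside 3 to 59 on its CDS. With whole-locus counts the AGO1 difference between NUN and cyto was -0.09, -0.26, 0.32 and 0.03 with siGFP, siPIWI, siPAF1 and the double knockdown, none of it called (adjusted p from 0.286 to 0.93). The gap between the fractions thus lay in CDS counts and not in counts of the locus as a whole. The AGO1 window hardly varied between libraries (4635 to 4675 bases).

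AGO2 showed the same shift. Its 3' window took 3.42% to 6.44% of counts in NUN and 72.1% to 95.4% in cyto, where it held 571 to 1777 counts beside 61 to 687 on the CDS. Whole-locus counts put AGO2 lower in NUN by -2.03, -1.71, -1.47 and -1.69 log2 units, called in all 4 siRNA groups (adjusted p from 4.32e-05 to 6.67e-04). The authors' AGO2 window differed between libraries, from 1919 to 2319 bases in NUN and from 369 to 1569 in cyto, so the cyto counts came from the shorter stretch. Opposite-strand counts in this window, into which CG7739 reaches, were 212 to 582 over the 16 libraries.

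The other 4 genes kept their direction with whole-locus counts. Dcr-1 had the smallest 3' share, 0.0984% to 0.878% in NUN and 3% to 31.3% in cyto on 1 to 5 window counts, and its locus difference was 2.30 to 3.68. The 3' share of Dcr-2 rose from 2.71% to 4.83% in NUN to 22.1% to 47.4% in cyto, with a locus difference of 0.97 to 1.66. For r2d2 the shares were 8.19% to 16.2% and 56.0% to 79.0% (locus difference -2.17 to -1.88). For loqs they were 5.33% to 18.4% and 32.6% to 56.8% (-2.01 to -1.27). The r2d2 window had 289 to 339 bases in NUN and 439 to 739 in cyto, so its cyto share came from a longer stretch. Windows also varied for Dcr-2 (466 to 2098 and 1048 to 1148), loqs (489 to 1318 and 489 to 868) and Dcr-1 (154 to 779 and 154 to 279). For each of the 6 genes the lowest cyto share lay above the highest NUN share. The 3' share of all exon counts was likewise 8.67% to 14.5% in NUN and 30.2% to 36.8% in cyto. The shift is thus one of the libraries as a whole and does not set the 6 genes apart. How many of all genes separate in this way was not counted.

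**Figure D3:**
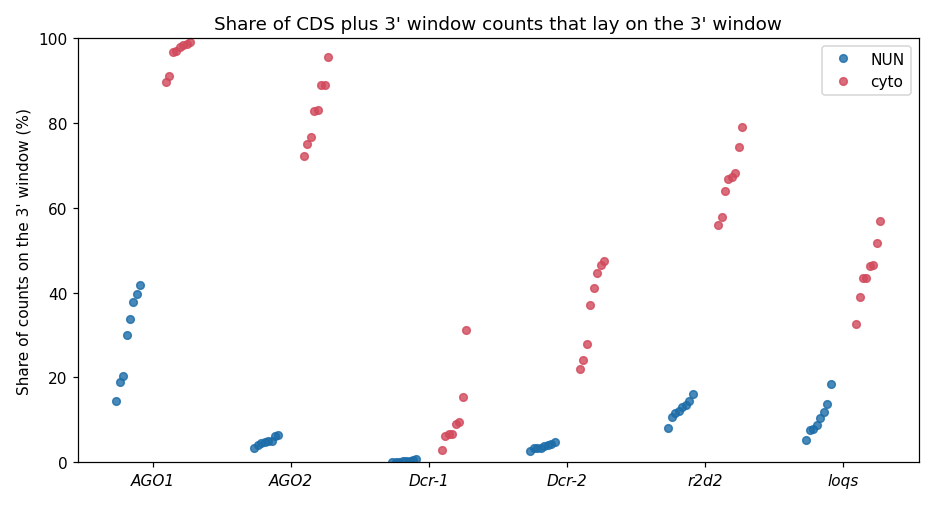
Share of CDS plus 3' window counts that lay on the 3' window, in percent, for each gene, with the 8 NUN libraries in blue and the 8 cyto libraries in red, sorted by value. The fractions do not overlap for any gene, and AGO1 in cyto lies between 89.6% and 99.1%.

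AGO1 also differed within its 3' region, and few of its cyto counts lay outside exons. The longest annotated AGO1 3' untranslated region has 4585 bases, of which the distal 2022 are absent from an annotated form of 2563 bases. The distal part took 5.77% to 14.5% of the window's counts in NUN and 35.6% to 54.9% in cyto, again without overlap. Counts of the AGO1 locus outside exons made up 11.9% to 24.8% in NUN, 210 to 648 per library, and 0% to 1.12% in cyto, at most 5. Such counts are locus counts less those of the 5' untranslated region, CDS and 3' window, set to 0 where these sum to more. For the other 5 genes they were at most 5 in any library. Their region counts often summed to more than the locus, as for r2d2 in NUN siPIWI OSS_146 (26, 281 and 39 against 322). Reads outside exons thus cannot be judged for these 5 genes. Of all genes, 22.5% to 32.0% of locus counts lay outside exons in NUN. For AGO1 in cyto the CDS held only 3 to 59 counts, beside 321 to 563 on the 3' window. Its low share outside exons there cannot be told apart from few counts on everything 5' of that window.

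Isoforms could be compared only where models differ in their CDS. The longest loqs model has 138 bases of CDS more than the next, and this stretch took 52 of 548 loqs CDS counts over the NUN libraries, where 54.1 would follow from its length, and 14 of 188 in cyto, where 18.6 would. The stretch was thus counted near its share of length in NUN and below it in cyto, on few counts. How evenly counts lie along the CDS was not tested, so these values do not measure the loqs isoforms. The shorter loqs models, of 1080 and 1152 bases, were not compared. AGO2, whose protein carries glutamine-rich repeats at its amino end, has a short model that lacks the first 1569 bases of the CDS (42.9% of its length). This 5' stretch held 19.2% to 35.4% of unique AGO2 CDS counts in NUN and 5.98% to 21.3% in cyto, both below the share of length. Unique counts leave out 2.1% to 44.9% of AGO2 CDS alignments in NUN and 2.11% to 25.6% in cyto. Where those lie was not tested, so the low share does not tell the short model from the long ones.

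The comparisons of each knockdown with siGFP ask whether loss of Piwi, Paf1 or both changed the RNA of the siRNA and miRNA machinery. None of the 6 genes passed the threshold in any of the 6 comparisons. The background was as sparse, with 0.121% of 8232 genes called for siPIWI in NUN, 0% for siPAF1 and 0.0121% for the double knockdown, and 0%, 0.105% and 0.0175% of 5714 genes in cyto. At an unadjusted p under 0.05 there were 0, 2 and 0 of the 6 in NUN and 1, 0 and 1 in cyto. Over all genes this share was 2.17%, 10.2% and 5.89% in NUN and 15.1%, 9.68% and 11.3% in cyto. DESeq2 called 0 of the 6 genes in all 6 comparisons. These bulk libraries cannot tell fewer cells of a kind from less RNA per cell.

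In NUN the estimates of AGO1 and Dcr-1 were small, whereas the AGO2 control libraries lay far apart. AGO1 stood at 442 and 518 CPM with siGFP, 499 and 443 with siPIWI, 485 and 472 with siPAF1 and 427 and 471 with the double knockdown, on the NUN scale. All these ranges overlap, and the log2 changes were -0.03 ± 0.18, -0.00 ± 0.18 and -0.10 ± 0.18. Dcr-1 was at 461 and 484 CPM with siGFP, 487 and 478 with siPIWI, 442 and 431 with siPAF1 and 442 and 444 with the double knockdown. The siPAF1 and double knockdown libraries thus lay below both controls, by -0.11 and -0.09 log2 units (SE 0.17 each). For AGO2 the siGFP libraries were 479 and 759.9 CPM, and the siPIWI libraries (725 and 530) lay between them (0.02 ± 0.27). Both siPAF1 libraries (769 and 776) lay above the controls (0.32 ± 0.27, edgeR adjusted p = 0.653), as did 1 of the double knockdown libraries (549 and 782). r2d2 had 71.3 and 53.7 CPM with siGFP, which spans all 6 knockdown libraries (57.3 to 70.6), and changes of -0.01, -0.03 and 0.04.

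Dcr-2 and loqs had the widest estimates in NUN, both with siPAF1. Dcr-2 was at 866 and 878 CPM with siGFP and at 1264 and 1087 with siPAF1, a log2 change of 0.43 ± 0.19 (unadjusted p = 0.04997, edgeR adjusted p = 0.489), and the double knockdown libraries (1055 and 969.8) also lay above both controls (0.22 ± 0.19). With siPIWI the Dcr-2 levels were 1016 and 804, on both sides of the controls. Loqs was at 49.1 and 17.2 CPM with siGFP and at 14.2 and 13.6 with siPAF1 (-1.23 ± 0.45, adjusted p = 0.424). Its control libraries thus differed by more than the lower one differed from siPAF1. Without siGFP OSS_146 the loqs change was -0.31, and with no count filter the change of -1.23 passed the threshold (adjusted p = 0.0287). In NUN with siPAF1 the groups did not overlap for 2 genes upward (AGO2 and Dcr-2) and 2 downward (Dcr-1 and loqs), beside 23.2% and 24% of all genes. This held for 0 of the 6 with siPIWI (10.6% upward and 9.86% downward of all genes), and with the double knockdown for Dcr-2 upward and Dcr-1 downward (14.5% and 16.8%).

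In cyto the counts were low and the libraries of a group further apart. AGO2 was higher than both siGFP libraries (83.4 and 121 CPM on the cyto scale) in all 6 knockdown libraries, with 253 and 172 with siPIWI, 129.5 and 201 with siPAF1 and 287 and 182 with the double knockdown. The log2 changes were 1.06 ± 0.44 (adjusted p = 0.303), 0.69 ± 0.44 (0.648) and 1.20 ± 0.44 (0.327), all against the same 2 control libraries. These directions are of CDS counts. With locus counts the AGO2 estimates were -0.31, -0.29 and -0.25, and with both strands counted 0.71, 0.32 and 0.78, none of them called. Dcr-2 lay above its controls (97.0 and 89.6) in all 6 too, at 195 and 114 with siPIWI, 123 and 120.3 with siPAF1 and 173 and 109 with the double knockdown (0.74 ± 0.43, 0.38 ± 0.43 and 0.60 ± 0.43, adjusted p from 0.387 to 0.795). With these counted, the groups did not overlap upward for 2 of the 6 genes with siPIWI, 4 with siPAF1 and 3 with the double knockdown, where 21.3%, 26.5% and 24.6% of all genes did so. Downward this held for 0 genes with siPIWI, for loqs with siPAF1 and for 0 with the double knockdown (20.3%, 23% and 20% of all genes). The median gene was 0.18, 0.04 and 0.11 log2 units higher than in siGFP.

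The miRNA genes AGO1 and Dcr-1 were decided by single cyto libraries. Dcr-1 was at 19.1 and 19.5 CPM with siGFP and at 63.0 and 16.1 with siPIWI (1.10 ± 0.57, adjusted p = 0.346). Without siPIWI OSS_147 the change was 1.67 and passed the threshold (adjusted p = 0.0239), and without siPIWI OSS_146 it was -0.26. AGO1 was at 8.20 and 15.6 CPM with siGFP and 38.3 and 4.40 with siPIWI (0.95 ± 0.73, and -1.43 without OSS_146). The siPIWI OSS_146 library had the highest share of locus counts outside exons (1.71%) and of opposite-strand CDS counts (0.761%) of the 8 cyto libraries. The double knockdown library OSS_146, second for AGO1 and Dcr-1 counts, had 1.46% and 0.469%, against 1.13% to 1.31% and 0.414% to 0.468% in the siGFP and siPAF1 libraries. The siPIWI library OSS_147, with 3 AGO1 and 11 Dcr-1 counts, had 1.48% and 0.629%. The part of nuclear RNA in these cyto levels was not tested. r2d2 (40.3 to 58.7 CPM in the 6 knockdown libraries, 41.0 and 40.3 with siGFP) and loqs (15.9 to 25.3, against 30.1 and 20.8) had estimates between 0.26 and 0.35 and between -0.52 and -0.26. With locus counts those of r2d2 were below 0 (-0.23 to -0.027).

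**Figure D4:**
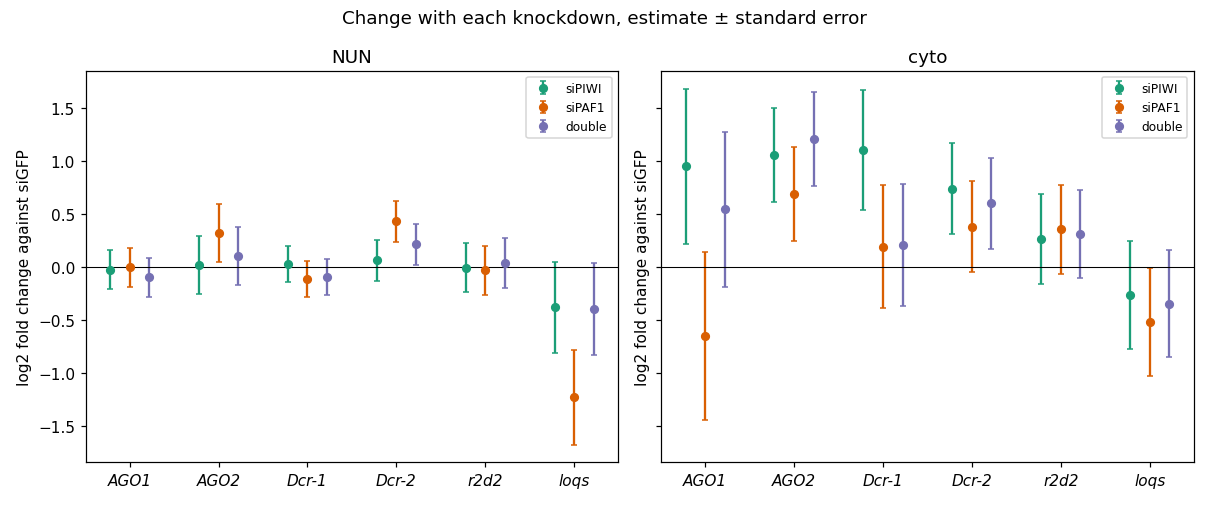
Log2 change of each gene against siGFP with its standard error, in NUN (left) and cyto (right), for siPIWI, siPAF1 and the double knockdown, 2 libraries per group. None of the estimates passed the threshold. NUN estimates other than loqs lie between -0.11 and 0.43, and cyto standard errors are 0.42 to 0.79.

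Whether a knockdown acted differently in the 2 fractions was tested as the change in NUN minus that in cyto. No gene of 7982 was called for any knockdown (0% of genes), and the 6 genes had values between -1.09 ± 0.58 for AGO2 with the double knockdown (adjusted p = 0.779) and 0.63 ± 0.84 for AGO1 with siPAF1 (adjusted p = 0.956). With siPIWI and with the double knockdown all 6 values were below 0. Their medians were -0.82 and -0.35, where the median gene was at -0.24 and -0.16. With siPIWI the highest values with a library left out were 1.46 for AGO1, 0.86 for loqs, 0.34 for Dcr-1 and 0.016 for r2d2. Another setting put AGO2 at 0.32, and Dcr-2 stayed below 0 under every setting. With the double knockdown each gene turned above 0 under some setting. At an unadjusted p under 0.05 there were 0 of the 6 for each knockdown, against 9.18%, 5.15% and 5.64% of all genes.

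The NUN libraries fell into 2 sets by the share of exon counts on 3' windows, which cut across the siRNA groups. It was 8.67% to 10.2% in siGFP OSS_146, siPIWI OSS_147 and the double knockdown OSS_146, and 13.0% to 14.5% in the other 5, which include both siPAF1 libraries. AGO2 levels separated along this split. They were 479, 530 and 549 CPM in the 3 libraries of low 3' share and 725 to 782 (median 769) in the 5 others. The gap was wider at the 5' end. The first 1569 bases of the AGO2 CDS had 104 to 110 CPM in the low set and 213 to 277 in the high set, whereas the shared remainder had 375 to 444 and 505 to 526. In the same libraries 2.1% to 3.62% of AGO2 CDS alignments of the low set, but 36.4% to 44.9% of the high set, came from reads with several alignments. For the other 5 genes this share was 0%.

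The split touched other members as well. AGO1 had 427 to 443 CPM in the low set and 471 to 518 in the high set, and its 3' window, which is among those that define the sets, held 44.0 to 62.4 CPM against 122 to 202 on the scale of all 16 libraries. r2d2 (65.7 to 71.3 against 53.7 to 61.4) and loqs (25.7 to 49.1 against 13.6 to 24.6) were higher in the low set, and both Dicers overlapped. In all, 2 genes lay higher and 2 lower in the high set without overlap, beside 14.2% and 11.7% of the 8232 genes. These sets were defined from the data and the labels name no batch for them, so the values are a description. With the set as a term in the NUN fit, chosen after the data were seen, AGO2 changed by 0.08 (adjusted p = 0.839) with siPAF1, Dcr-2 by 0.39 (0.361) and loqs by -0.77 (0.402), and none of the 6 was called. The same fit called 20, 19 and 30 of all genes for siPIWI, siPAF1 and the double knockdown, where the fit without it called 10, 0 and 1. Within the high set, where the siPAF1 libraries meet 1 control library, the ratio to that control was 0.02 log2 units for AGO2, 0.42 for Dcr-2 and -0.31 for loqs.

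**Figure D5:**
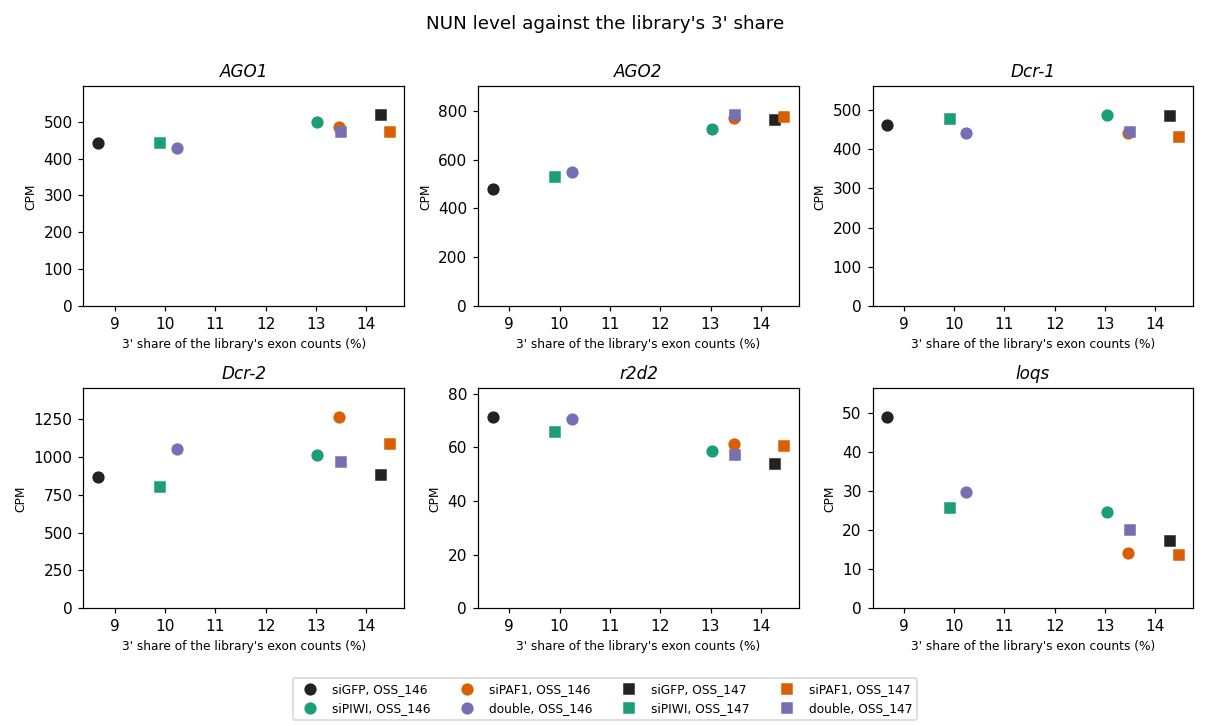
NUN level of each gene (CPM on the NUN scale, axis from 0) against the 3' share of the library's exon counts in percent, 8 libraries, colour by siRNA and shape by library number. AGO2 is at 479 to 549 in the libraries with a share of 8.67% to 10.2% and at 725 to 782 in those with 13.0% to 14.5%.

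The wider small RNA machinery was described through 7 lists with 53 names, of which 51 were found in the files. Rows named as miRNA genes (mir-, bantam or let-7) numbered 0. In NUN 50 and in cyto 45 of these genes were tested, and none was called with any knockdown. Between fractions 22 were higher and 12 lower in NUN with siGFP, 19 and 12 with siPIWI, 22 and 12 with siPAF1 and 19 and 11 with the double knockdown, of 50 tested and on TMM factors. Over all genes, in the same order, 36.6% and 30.3%, 31.5% and 30.1%, 36.8% and 32.6%, and 34.6% and 31% were higher and lower. The lists hold none of the 6 genes.

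In miRNA biogenesis 4 of 9 genes were higher and 2 lower in NUN with siGFP, against 36.6% and 30.3% of all genes (list median 0.49, all genes 0.55). Pasha, the partner of the nuclear enzyme Drosha, had the largest difference (5.40 ± 1.003, adjusted p = 5.13e-05), on 0 to 17 counts per cyto library. Ranbp21, the fly exportin of pre-miRNAs, stood 3.99 ± 0.48 higher and the cap-binding gene Cbp80 2.65 ± 0.59. Drosha itself (-1.46 ± 0.35) and Cbp20 (-2.72 ± 0.39), whose CDS has 465 bases, were lower. The effector list holds gw and the deadenylation and decapping genes. Of its 18 genes 12 were higher (36.6% of all genes) and 1 lower (30.3%), with a median of 1.72. Among them gw, the AGO1 partner that recruits the CCR4-NOT complex, differed by 1.65 ± 0.39, its scaffold Not1 by 3.98 ± 0.60, the deadenylase subunit PAN3 by 3.97 ± 0.63, the decapping enzyme Dcp2 by 4.004 ± 0.64 and the decapping cofactor Edc3 by 3.88 ± 0.72. Dcp1, the short partner of Dcp2, was lower (-3.78 ± 0.37). Coding lengths in the effector list ran from 915 to 7518 bases. Over all genes the median was 0.34 for 1000 to 2000 bases, 1.92 for 2000 to 4000 and 3.16 above. The part of length in the effector values was not tested.

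Of the 8 loading genes 1 was higher and 5 were lower (median -2.45), where 36.6% and 30.3% of all genes were. The 4 lower genes named next have coding lengths of 555 to 1176 bases. The median was -1.56 for all genes under 1000 bases. For those of 1000 to 2000, which include Hen1 (1176), it was 0.34 with a lower quartile of -1.33. The part of length in their values was not tested. Trax and trsn, the subunits of the C3PO nuclease that removes the passenger strand, were at -4.62 ± 0.42 and -2.87 ± 0.39. Hen1, which methylates AGO2-bound siRNAs, was at -3.14 ± 0.44 and the co-chaperone p23 at -3.55 ± 0.49. The chaperone Hsp83 did not pass (0.90 ± 0.46, adjusted p = 0.0874). Of 6 RISC-associated genes 4 were higher, among them Fmr1 (2.30 ± 0.45), vig (2.17 ± 0.51) and the helicase bel (1.16 ± 0.49), and vig2 was lower (-1.94 ± 0.36). Of the tested antiviral genes, blanks (-2.06 ± 0.91, adjusted p = 0.0497) and pst (-1.17 ± 0.38) were lower and ref(2)P did not pass (0.72 ± 0.38). In the Piwi clade AGO3 was lower (-2.72 ± 0.99) on at most 9 counts per cyto library, and piwi (0.23 ± 0.44) and aub (-0.86 ± 0.92) did not pass.

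Of the endogenous siRNA genes, CG4068, whose transcript folds into hairpins that Dcr-2 cuts, was 4.72 ± 0.77 higher in NUN with siGFP (adjusted p = 1.07e-05) on 1 to 15 counts per cyto library. It remained higher in the other groups (3.66, 5.11 and 3.89). Its known target mus308, a DNA polymerase gene, was at 0.56 ± 0.40 with siGFP and did not pass, but was higher in NUN in the other groups (1.59, 2.80 and 2.52). In cyto mus308 had 44.5 ± 8.77 CPM with siGFP (mean ± SD, n = 2), 18.6 ± 15.9 with siPIWI (-1.15 ± 0.54, adjusted p = 0.324), 7.59 ± 0.888 with siPAF1 (-2.52 ± 0.59, adjusted p = 0.107) and 9.02 ± 0.827 with the double knockdown (-2.27 ± 0.58, adjusted p = 0.168), on 5 to 46 counts per library. CG4068 itself was at 158 ± 98.7 CPM in NUN with siGFP and at 241 ± 10.1 with siPAF1 (0.60 ± 0.48, adjusted p = 0.632), and it was not tested in cyto.

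With no list gene past the threshold against siGFP, the most abundant ones describe the knockdowns. Not1 in NUN was at 1707 ± 115 CPM with siGFP and changed by 0.03 ± 0.18, 0.27 ± 0.18 and 0.11 ± 0.18 with siPIWI, siPAF1 and the double knockdown, none of it past the threshold. The chaperone Hsp83, which loads Argonautes, had 7446 ± 2459 CPM in NUN and estimates from -0.20 to -0.01, and 1347 ± 82.1 CPM in cyto and estimates from 0.10 to 0.34. Its partner Hsc70-4 had estimates from -0.32 to 0.03 in NUN and from -0.67 to -0.12 in cyto. Ranbp21 (313 ± 17.4 CPM in NUN with siGFP) ranged from -0.18 to 0.06. The helicase Rm62 had estimates below 0 in all 6 comparisons (-0.53 to -0.13), and drosha in cyto too (-0.42 ± 0.44, -0.63 ± 0.44 and -0.88 ± 0.44, adjusted p from 0.464 to 0.666). The effector list had a median of 0.73 in cyto with siPIWI, where AGO1 and Dcr-1 turned on 1 library, and of 0.11 and 0.39 with siPAF1 and the double knockdown.

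For each member the genes with the most similar profile were found among 3681 genes with at least 20 counts on average in each fraction, by the Pearson correlation of log2 CPM over 16 libraries after the mean of each fraction was taken off. AGO1 was most like lid and CG8557 (r = 0.957 each) and AGO2 most like RanBPM (0.949) and CG8547 (0.945). AGO1 itself averaged only 20.5 counts in cyto, with 59 and 56 in the siPIWI and double knockdown libraries OSS_146. How far its r rests on these libraries was not tested. Dcr-1 was most like Cbp80 (0.959) and CG9153 (0.951), and Dcr-2 most like spn-E (0.93) and CG6230 (0.928). For r2d2 the nearest were CG10470 (0.895) and CG5174 (0.883), and for loqs CG11447 (0.877) and Det (0.867). The points share libraries, depth and the library sets above, so these values are a description.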

How the data were processed

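RNA sequencing libraries of OSS cells, with strand kept (8 NUN, 8 cyto), were used. Alignment was with Bowtie, per the submitters' processing notes; its version and the build are not given in the sources used here. Per the file headers, the authors deposited raw read counts per transcript model and region (5' untranslated region, CDS, 3' window, locus) for unique and all alignments. The deposited RPM values, scaled to each library by the authors, were not used. The 3' windows differ in length between libraries, so CDS counts were the measure. The minus column held 95.4% and 96.0% of the CDS counts of genes on the plus and minus strands and was taken as the own strand. For each of 14229 genes the longest coding model was used.

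Tests were run in R 4.3.3 with edgeR 4.0.16, using filterByExpr and TMM, and the robust form of the quasi-likelihood F test with a coefficient for each group. The NUN fit held 8232 genes (biological coefficient of variation 21.2%), the cyto fit 5714 (32.0%) and the 16-library fit 7982 (25.1%). P-values were adjusted by Benjamini-Hochberg over all genes tested, at a threshold of 0.05. SE is the absolute log2 change divided by the square root of F. CPM values use library sizes multiplied by TMM factors. Alternatives were DESeq2 1.42.0 and its size factors, no or a strict count filter (10 counts), locus counts, both strands, all alignments, the top 20 genes left out of library sizes, the library number as a block, only the groups compared, and each library left out. Library sizes alone and a term for the 3' share were added after the data were seen. The tests were checked on simulated data. For siPIWI in NUN they called 28 of 100 genes changed by 1 log2 unit, 90 of 100 changed by 2, and 6 unchanged genes of 8232. The corresponding numbers for siPIWI in cyto were 3, 59 and 0 of 5714, and for the fractions with siGFP 7, 82 and 5 of 7982. That fraction simulation changed only 100 genes by 1 log2 unit and 100 by 2, whereas 66.9% of genes were called in the data. Its 5 false calls therefore do not check the NUN against cyto test where so many genes differ and scaling sets the sign. The members, lists, tests and naming rule were chosen with earlier results of these data known. List genes past the threshold were named, up to 4 per comparison by size of change, or with none the 2 most abundant, and a few more were added after their values were seen. The labels describe no molecular identifiers, so counts may hold PCR copies.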

Additional observations from a re-analysis of the deposited data

How the results depend on the processing

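Of the 1256 values of the 6 genes under other settings, 1123 kept direction and call, 83 were estimates without a call that changed sign, 28 lost and 9 gained a call in the same direction, and 13 changed sign where either value was called. For NUN against cyto, locus counts turned AGO1 to -0.093 with siGFP and -0.26 with siPIWI, and AGO2 to -2.03, -1.71 and -1.47 with siGFP, siPIWI and siPAF1. Library sizes alone turned r2d2 to 1.004, 0.14, 0.19 and 0.21 with siGFP, siPIWI, siPAF1 and the double knockdown, loqs to 0.79, 0.026 and 0.23 with siGFP, siPIWI and the double knockdown, and AGO2 to 1.29 with the double knockdown. Of the 6 genes, 0 were called against siGFP under every setting, except 1 (loqs) for siPAF1 in NUN with no count filter and 0 to 1 (Dcr-1) for siPIWI in cyto with each library left out. With each library left out, 3 to 6 were called for NUN against cyto with siGFP, 3 to 5 with siPIWI and 3 to 5 with the double knockdown. AGO2 with siPAF1 gained its call with DESeq2 (0.997, adjusted p = 0.00831), DESeq2 size factors, all alignments, library sizes alone and only the groups compared. For AGO2 in cyto, locus counts turned the changes from 1.06, 0.69 and 1.20 to -0.31, -0.29 and -0.25, without a call in either. For siPIWI the Dcr-2 call between fractions was also lost with both strands (0.83, adjusted p = 0.0633) and only the groups compared (1.002, 0.165), and the loqs call with DESeq2 size factors (-0.99, 0.06) and DESeq2 (-0.9994, 0.0751). The loqs call with the double knockdown was lost with both of these too (-0.91, 0.0714, and -0.94, 0.0853). The cause of these changes was not tested, beyond what each setting counts. The labels do not say what the library numbers mark. The differences between the numbers correlated across groups at -0.31 to 0.65 in NUN, at -0.17 to 0.57 in cyto, and at -0.0077 to 0.17 between the fractions of the same siRNA group, so pairing was not taken as shown. With the replicate block 0 of the 6 genes were called in each knockdown comparison and interaction, and 6, 5, 5 and 5 for NUN against cyto, as without it. Counts over all genes moved more. For siPIWI, siPAF1 and the double knockdown in NUN 10, 0 and 1 genes became 38, 193 and 81 with no count filter, 19, 32 and 18 with DESeq2, and 6, 0 and 0 with the replicate block. In cyto 0, 6 and 1 became 5, 42 and 21 with no count filter, 5, 33 and 27 with DESeq2 and 7, 76 and 73 with the block. Depth limits cyto most, where AGO1 rested on 3 to 59 CDS counts per library.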
